A study of Mus musculus with 6 samples.

Results

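The ATF4 stress response genes described here are 10 mRNAs of mouse CD8+ T cells: Atf4, Atf5, Ddit3, Cebpb, Cebpg, Asns, Trib3, Chac1, Sesn2 and Ddit4. They were taken by symbol from the deposited counts of 11922 genes, as a named set chosen with earlier results of these data known and not by a threshold on a measured value. All 10 were listed there and all 10 passed the filter on low counts, which left 11759 genes for testing.

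ATF4 is a transcription factor of the integrated stress response. When cells lack amino acids, accumulate unfolded proteins or carry damaged mitochondria, kinases phosphorylate the initiation factor eIF2α, general translation slows and the Atf4 mRNA is translated more, so that ATF4 protein can rise without its mRNA. With C/EBP partners it then drives genes of amino acid synthesis, uptake and tRNA charging, and activated T cells use this program while they grow. The data are mRNA levels alone and hold no measure of ATF4 protein.

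CD8+ T cells of the spleen of C57BL6/J mice, selected on CD8α with magnetic beads, were activated with anti-CD3/anti-CD28 Dynabeads and kept in recombinant human IL-2 at 100 units/ml for 7 days. The vehicle group received water and the AOA group 0.25 mM aminooxyacetic acid, an inhibitor of many enzymes that depend on vitamin B6, aminotransferases included, throughout; the cells were washed at 72 hours and expanded for 4 more days. The same 3 donor mice supplied both groups, which gave 3 libraries per group, and replicates carry the number of their mouse. The labels give no age for the mice and name no genetic change.

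Total counts per library ran from 12881962 to 18934869 with vehicle and from 18696114 to 21997078 with AOA. Across all tested genes, 53.0% were called changed (adjusted p under 0.05), 26.2% higher and 26.8% lower with AOA. The summed level of 6 CD8+ T cell markers was 3304 to 4213 CPM (counts scaled to library size) with vehicle and 4251 to 4984 with AOA, but its 6 genes did not move together: Cd8a and Cd8b1 rose, Cd2 fell, Cd3d, Cd3e and Cd3g were not called, and the median log2 fold change was -0.20. CD4+ T cell markers, 3 of 3 listed, summed to 82.2 to 137 and 21.7 to 31.3 CPM (Cd4 and Cd40lg fell, and Foxp3 was not called at a log2 fold change of 0.36), and B cell markers, 4 of 4 listed, to 12.6 to 16.6 and 22.6 to 30.7 CPM. Myeloid markers, 4 of 7 listed, summed to 60.2 to 120 CPM with vehicle and 5.42 to 10.3 with AOA, with Csf1r, S100a8 and S100a9 not listed. Itgam fell from a mean of 45.4 to 1.21 CPM, and Cd68 and Fcer1g were also called lower. Lyz2, too low to be tested, went the other way, with 0, 5 and 0 counts with vehicle and 6, 22 and 2 with AOA. Natural killer markers, 3 of 3 listed, summed to 24.2 to 138 and 4.34 to 13.4 CPM, mostly Klrb1c. Klrb1c and Tyrobp were called lower, whereas Ncr1, too low to be tested, had 0, 37 and 0 counts with vehicle and 5, 11 and 3 with AOA. The highest myeloid and natural killer sums were those of vehicle replicate 2, the myeloid sum through Fcer1g, and no erythroid marker was listed.

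Of the 10 genes, 4 fell with AOA and 0 rose, while 6 did not pass the test. Atf4 itself, Ddit3, Trib3 and Ddit4 fell, and in these 4 genes every AOA library lay below every vehicle library, against 26.8% of all tested genes called lower and 31.1% with all AOA libraries below. None of the 10 had all AOA libraries above (31.0% of tested genes), so 4 of 10 had groups that did not overlap in either direction, against 62.1%. The median log2 fold change was -0.58 over the 10 genes and -0.02 over all tested genes. Asns, Sesn2, Cebpg and Atf5 had positive but not called differences, and those of Chac1 and Cebpb were negative and not called. In bulk RNA, fewer cells that express a gene and less of its mRNA per cell cannot be told apart.

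**Figure D1:**
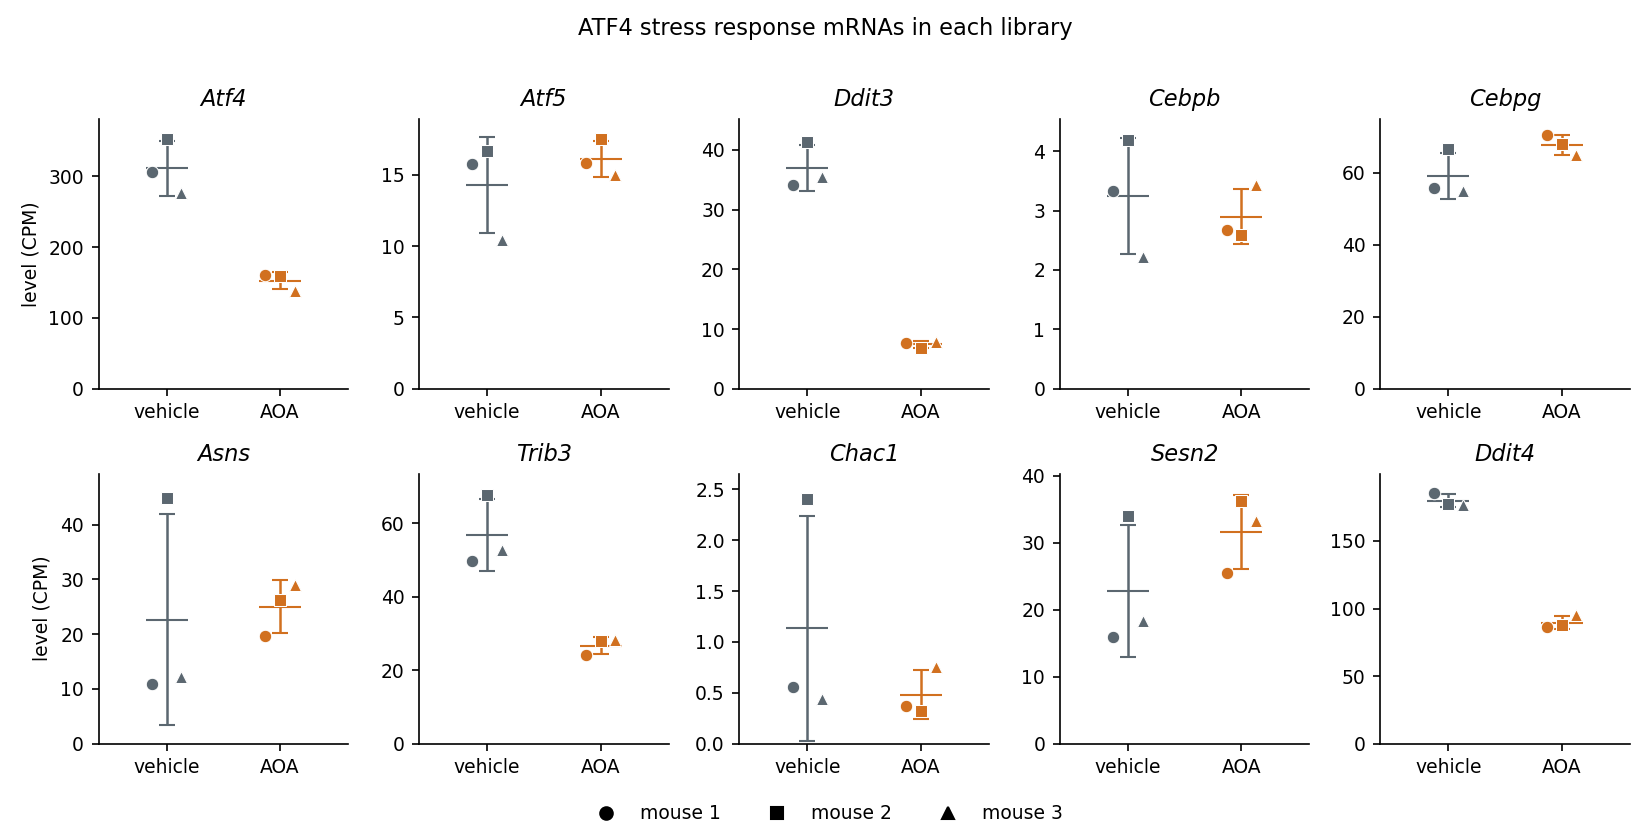
Level of each gene in CPM (vertical axis, from 0) in the 3 vehicle and 3 AOA libraries, with circles, squares and triangles for mice 1, 2 and 3 and bars for the mean and SD of 3 libraries. Atf4, Ddit3, Trib3 and Ddit4 lie lower in every AOA library, whereas Asns, Chac1 and Sesn2 have a vehicle point from mouse 2 well above the other vehicle points.

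Among the transcription factors, Atf4 (Entrez 11911, chr15:80255184-80257545, plus strand, GRCm38.p6) fell. Its level was 306, 353 and 276 CPM in vehicle replicates 1, 2 and 3 and 161, 159 and 138 CPM in AOA replicates 1, 2 and 3. The groups did not overlap, and the AOA mean of 153 ± 12.5 CPM was 0.491 of the vehicle mean of 311 ± 38.7 CPM (SD, n = 3). The log2 fold change was -1.03 (SE 0.15, 95% interval -1.36 to -0.70, adjusted p = 4.81e-04), with a decrease in each of the 3 mice. It remained lower in all 13 alternatives, between -1.08 and -0.89. Of the tested genes outside the lists used here, Dusp14, Cfp and Rnf111 followed Atf4 most closely over the 6 libraries (Pearson r = 0.998 of log2 CPM for each), a description that takes in the difference between the groups.

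Ddit3 (Entrez 13198, chr10:127290793-127296291, plus strand) encodes CHOP, a C/EBP relative that ATF4 induces and that is tied to cell death under lasting stress, and it fell the most of the 10. It was at 34.0, 41.3 and 35.5 CPM with vehicle and at 7.63, 6.82 and 7.82 CPM with AOA. Every AOA library lay far below every vehicle library, and the mean fell from 37.0 ± 3.86 to 7.42 ± 0.53 CPM, or 0.201 of the vehicle level. The log2 fold change was -2.31 (SE 0.16, 95% interval -2.67 to -1.96, adjusted p = 1.51e-05), with mouse-wise log2 differences of -2.14, -2.58 and -2.17. Ddit3 overlaps Mars on the opposite strand, and Mars, the methionyl-tRNA synthetase, was not called (log2 fold change 0.29, adjusted p = 0.222).

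Neither C/EBP partner nor Atf5 changed by the test. Cebpg (Entrez 12611, chr7:35046422-35056566, minus strand), which encodes the partner that ATF4 needs at many amino acid genes, was at 55.7, 66.5 and 55.0 CPM with vehicle and 70.4, 67.9 and 64.9 CPM with AOA. Its groups overlapped only through vehicle replicate 2, and its log2 fold change was 0.20 (SE 0.13, 95% interval -0.09 to 0.49, adjusted p = 0.226). Cebpb (Entrez 12608, chr2:167688915-167690432, plus strand), encoding a partner induced in many stresses, was low, with 42, 66 and 41 counts with vehicle and 58, 49 and 68 with AOA. These correspond to 3.33, 4.18 and 2.23 CPM against 2.67, 2.59 and 3.43 CPM, which overlap (log2 fold change -0.16, 95% interval -0.86 to 0.54, adjusted p = 0.690). Atf5 (Entrez 107503, chr7:44812256-44816658, minus strand), an ATF4 target linked to the mitochondrial unfolded protein response, was at 15.8, 16.7 and 10.4 CPM with vehicle and 15.8, 17.5 and 15.0 CPM with AOA. Vehicle replicate 3 was the lowest of the 6 libraries and the others lay within a narrow range (log2 fold change 0.18, 95% interval -0.29 to 0.64, adjusted p = 0.499). Atf5 overlaps Nup62 on the opposite strand, and Nup62 rose from a mean of 61.2 to 152 CPM (log2 fold change 1.31, adjusted p = 7.44e-05); reads of Atf5 and Nup62 are separated only if the counting used strand, which the sources used here do not state. The same holds for Il4i1, which also lies opposite Atf5, and for Tmem189, opposite Cebpb. Cebpg overlaps the gene models Gm44836 and Gm45094, and Sesn2 overlaps Gm12981, on the same strand, where strand does not separate reads, so the levels of these 5 genes, Ddit3 included, carry that uncertainty.

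The promoters of the targets were searched for the C/EBP-ATF response element, the composite site that ATF4 dimers bind, written as TGATGNAA and read on both strands. Of the 10 genes, 3 hold it within 250 bases before and 50 bases after their start (30%), namely Asns, Chac1 and Trib3, against 4.51% of the 27025 genes with a RefSeq promoter and 2.78% of the tested genes with one. The cyclic AMP response element TGACGTCA, none of whose matches can also be a match of the first element, is in the promoter of 0 of the 10 genes. Its share is 2.03% of all genes with a promoter and 3.68% of the tested genes with one. At such shares 0 of 10 does not set these genes apart. The match of Trib3, TTACATCA, lies after the start at bases 15 to 22, counted from 1 at the first base of the gene. The 250 bases before the start are given for Asns and Chac1, the genes with an upstream match and with the largest ratios of vehicle replicate 2 to the other vehicle libraries, and for Ddit3 and Atf4, which fell and have no match in this window. The sequences are RefSeq GRCm38.p6, read 5′ to 3′ on the strand of the gene, at chr6:7693210-7693459 (minus strand) for Asns, chr2:119350992-119351241 (plus strand) for Chac1, chr10:127290543-127290792 (plus strand) for Ddit3 and chr15:80254934-80255183 (plus strand) for Atf4. Capitals mark the match, at bases -23 to -16 in Asns and -193 to -186 in Chac1.
Asns: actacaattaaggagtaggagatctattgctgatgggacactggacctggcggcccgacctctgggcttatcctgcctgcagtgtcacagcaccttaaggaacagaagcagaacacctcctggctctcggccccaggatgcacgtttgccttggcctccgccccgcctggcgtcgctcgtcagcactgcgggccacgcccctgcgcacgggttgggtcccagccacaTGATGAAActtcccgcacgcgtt
Chac1: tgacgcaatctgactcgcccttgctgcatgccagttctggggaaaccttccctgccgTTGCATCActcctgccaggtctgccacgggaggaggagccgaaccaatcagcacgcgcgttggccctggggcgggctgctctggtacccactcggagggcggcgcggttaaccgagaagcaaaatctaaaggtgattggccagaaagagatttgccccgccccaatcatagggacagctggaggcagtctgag
Ddit3: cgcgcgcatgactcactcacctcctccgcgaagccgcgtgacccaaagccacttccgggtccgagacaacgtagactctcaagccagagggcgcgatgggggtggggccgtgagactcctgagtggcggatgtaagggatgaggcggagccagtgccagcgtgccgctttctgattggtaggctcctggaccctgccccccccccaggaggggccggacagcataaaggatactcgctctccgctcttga
Atf4: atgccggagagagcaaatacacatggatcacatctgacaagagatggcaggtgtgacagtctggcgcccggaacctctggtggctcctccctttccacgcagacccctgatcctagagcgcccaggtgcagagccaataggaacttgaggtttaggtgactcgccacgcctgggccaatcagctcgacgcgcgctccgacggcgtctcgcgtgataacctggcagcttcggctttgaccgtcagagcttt

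Asns (Entrez 27053, chr6:7675165-7693209, minus strand), which encodes asparagine synthetase and carries the match TGATGAAA next to its start, differed widely between the vehicle libraries. It had 137, 708 and 225 counts with vehicle and 428, 498 and 575 with AOA. As levels these were 10.9, 44.9 and 12.2 CPM against 19.7, 26.3 and 29.0 CPM. Vehicle replicate 2 was above every AOA library, and the other two vehicle libraries were below every AOA library. The log2 fold change over all 6 libraries was 0.14 (SE 0.47, 95% interval -0.93 to 1.21, adjusted p = 0.823), with log2 differences of 0.85, -0.77 and 1.24 in mice 1, 2 and 3. Without vehicle replicate 2 the log2 fold change was 1.15 (SE 0.20, adjusted p = 0.00126), so 1 library decided the call. Per 100 Atf4 counts there were 3.56, 12.7 and 4.43 Asns counts with vehicle and 12.2, 16.6 and 21.0 with AOA. By this ratio vehicle replicates 1 and 3 lay below every AOA library and vehicle replicate 2 within the AOA range.

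Chac1 (Entrez 69065, chr2:119351242-119354326, plus strand) encodes an enzyme that breaks down glutathione and is induced by ATF4. It was the least abundant of the 10, with 7, 38 and 8 counts with vehicle and 8, 6 and 15 with AOA. Vehicle replicate 2, at 2.41 CPM, stood above 0.556 and 0.434 CPM in the other vehicle libraries and above 0.368, 0.317 and 0.757 CPM with AOA. The log2 fold change was -1.23 (95% interval -2.79 to 0.33, adjusted p = 0.163) with that library and 0.01 (95% interval -1.22 to 1.25, adjusted p = 0.984) without it.

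Sesn2 (Entrez 230784, chr4:132492804-132510456, minus strand) encodes Sestrin 2, a leucine-sensing inhibitor of mTORC1. In the fit of all 6 libraries, though not in that without vehicle replicate 2, it had the highest fold change of the 10. It was at 15.9, 34.0 and 18.3 CPM with vehicle and 25.4, 36.2 and 33.3 CPM with AOA. All 3 mice had more with AOA, by 0.68, 0.09 and 0.86 on the log2 scale, while the groups overlapped through vehicle replicate 2. The log2 fold change was 0.47 (SE 0.28, 95% interval -0.15 to 1.10, adjusted p = 0.179). With the mouse as a block it was 0.54 (adjusted p = 0.0317), and without vehicle replicate 2 it was 0.92 (SE 0.19, adjusted p = 0.00272), both past the threshold.

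Trib3 and Ddit4 fell. Trib3 (Entrez 228775, chr2:152337425-152344060, minus strand) encodes a pseudokinase that ATF4 and CHOP induce and that dampens both. It was at 49.8, 67.9 and 52.9 CPM with vehicle and 24.0, 27.9 and 28.2 CPM with AOA, which do not overlap, with vehicle replicate 2 at 1.32 times the other vehicle libraries (log2 fold change -1.09, SE 0.16, adjusted p = 5.30e-04). Ddit4 (Entrez 74747, chr10:59949675-59951770, minus strand) encodes REDD1, an inhibitor of mTORC1 that also responds to hypoxia and glucocorticoids. It was at 185, 177 and 177 CPM with vehicle and 86.2, 87.5 and 95.3 CPM with AOA, and the mean fell from 180 ± 4.84 to 89.7 ± 4.95 CPM (log2 fold change -1.0, SE 0.12, adjusted p = 1.96e-04). Ddit4 was the only one of the 10 genes not at its vehicle maximum in vehicle replicate 2, at 0.980 of the mean of the other two libraries.

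Vehicle replicate 2 was thus the highest vehicle library for 9 of the 10 genes, against 42.2% of all tested genes, and exceeded 1.5 times the mean of vehicle replicates 1 and 3 for 4 of them, against 11.3%. The ratio was 4.87 for Chac1, 3.89 for Asns, 1.99 for Sesn2 and 1.51 for Cebpb, and between 1.19 and 1.32 for Trib3, Atf5, Atf4, Cebpg and Ddit3. These counts were taken after the values had been seen. In the same library the myeloid list summed to 120 CPM against 60.2 and 61.1 in the other vehicle libraries and the natural killer list to 138 CPM against 44.7 and 24.2, while the myeloid excess was mostly Fcer1g, at 53.4 CPM against 2.22 and 5.86, and Cd68 was at 13.3 CPM against 15.2 and 14.7. The CD8+ T cell list was lowest there among the vehicle libraries, at 3304 CPM, and the part of these other cell markers in the levels of the 10 genes was not tested. Without vehicle replicate 2, 3 of the 10 genes were higher with AOA (Asns, Sesn2 and Cebpg, the last with a log2 fold change of 0.33 and adjusted p = 0.0492), against 29.6% of tested genes, and the same 4 were lower, against 27.9%. The median log2 fold change of the 10 was then 0.06, but leaving out the library that was highest for 9 of the 10 by itself raises fold changes.

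**Figure D2:**
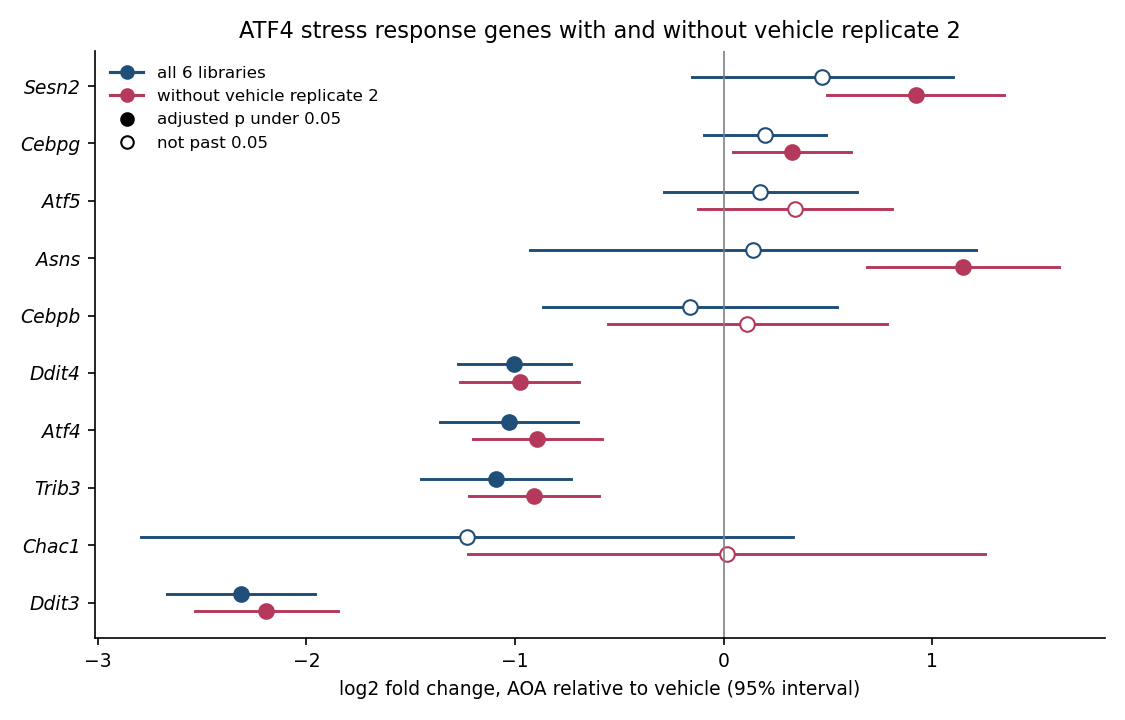
Log2 fold change of AOA relative to vehicle (horizontal axis) with its 95% interval for each gene, over all 6 libraries (blue) and without vehicle replicate 2 (red), with filled points where the adjusted p is under 0.05. Ddit3, Trib3, Atf4 and Ddit4 are filled and below 0 in both fits, while Asns moves from 0.14 to 1.15 and Sesn2 from 0.47 to 0.92.

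Levels between genes were compared as CPM per kilobase of the deposited gene length. With vehicle the order was Atf4 (180), Ddit4 (107), Ddit3 (42.4), Trib3 (27.7), Cebpg (12.6), Asns (11.8), Sesn2 (8.56), Atf5 (7.17), Cebpb (2.14) and Chac1 (0.722 CPM per kilobase). Among neighbours in this order, the libraries of Cebpg and Asns, Asns and Sesn2, Sesn2 and Atf5, and Cebpb and Chac1 overlapped, so these were not apart beyond their spread. With AOA Atf4 (88.4) and Ddit4 (53.2 CPM per kilobase) kept the top ranks, and Ddit3 went from rank 3 to rank 7 at 8.52 CPM per kilobase, overlapping Atf5 at 8.08. Cebpg at 14.4, Trib3 and Asns both at 13 and Sesn2 at 11.9 CPM per kilobase lay between Ddit4 and Ddit3, and the libraries of these 4 genes overlapped in each pair other than Cebpg with Trib3 and Cebpg with Sesn2.

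**Figure D3:**
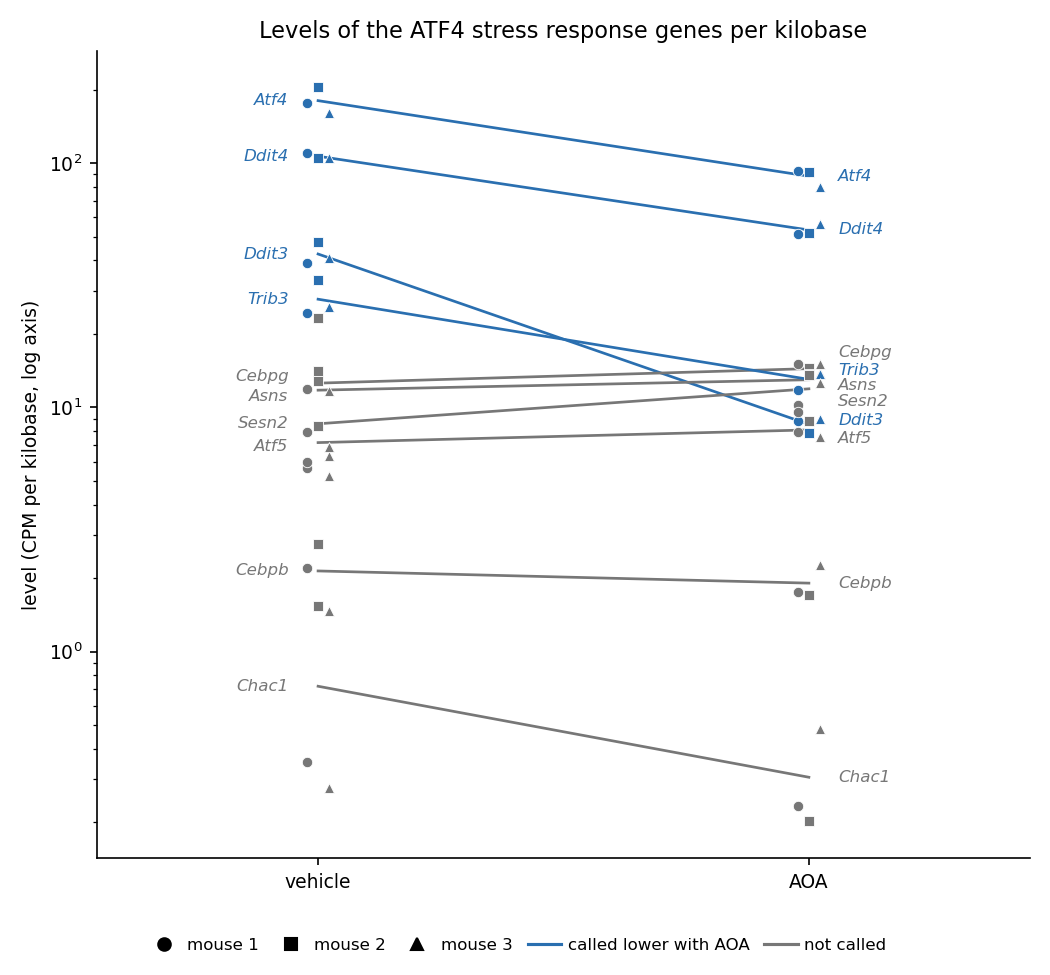
Level per kilobase of gene length (vertical log axis, CPM per kilobase) in each library, with a line joining the group means of each gene, blue for genes lower with AOA and grey for genes not called. Ddit3 drops from 42.4 to 8.52 and crosses Trib3, Cebpg, Asns and Sesn2.

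Upstream of ATF4, the kinase Eif2ak3 (PERK), which senses unfolded proteins in the endoplasmic reticulum, fell from 318, 427 and 336 CPM with vehicle to 52.2, 81.3 and 71.0 CPM with AOA (log2 fold change -2.40, SE 0.20, adjusted p = 3.21e-05). Eif2ak4 (GCN2), which senses uncharged tRNA, fell from 31.7, 24.1 and 27.7 to 13.7, 17.6 and 15.3 CPM (log2 fold change -0.84, SE 0.17, adjusted p = 0.00280). Eif2ak1 (HRI) and Eif2ak2 (PKR), activated by heme shortage and double-stranded RNA, were not called at log2 fold changes of 0.09 and 0.10 (adjusted p = 0.601 and 0.642). Both called kinases and Ddit3 had no overlap between the groups. Ppp1r15a (GADD34), the stress-induced phosphatase subunit that reverses eIF2α phosphorylation and is itself a target of ATF4 and CHOP, fell from 43.3, 39.8 and 34.7 to 12.5, 14.1 and 12.9 CPM (log2 fold change -1.58, SE 0.15, adjusted p = 5.77e-05). Its constitutive counterpart Ppp1r15b was not called (log2 fold change 0.19, adjusted p = 0.265). Eif2s1, encoding eIF2α, rose (log2 fold change 1.33, SE 0.21, adjusted p = 7.06e-04). In all, 1 of the 12 upstream genes rose and 3 fell, against 26.2% higher and 26.8% lower among all tested genes, with a median log2 fold change of 0.10.

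Of 19 further ATF/CREB and C/EBP genes 13 were listed, all of them tested, and 1 rose and 5 fell, against 26.2% and 26.8% of all tested genes, with a median log2 fold change of -0.14. Atf3, a stress-induced repressor that ATF4 activates, fell (log2 fold change -3.08, SE 0.40, adjusted p = 2.93e-04), as did Crem, a cyclic AMP responsive factor (-1.94, adjusted p = 0.00217). Atf1 rose slightly (log2 fold change 0.44, adjusted p = 0.0177). Without vehicle replicate 1, 3 of these relatives were called in all. Among paralogs of the 10 genes, 6 of 7 were listed, and 1 rose and 2 fell, against the same shares, with 1 called in all without vehicle replicate 1, vehicle replicate 3, AOA replicate 1 or AOA replicate 3. Trib1, a pseudokinase related to Trib3, fell (log2 fold change -2.04, adjusted p = 0.00312), and Sesn3, related to Sesn2, fell by 0.40 on the log2 scale (adjusted p = 0.0296, called in 8 of 13 alternatives). Chac2, related to Chac1, rose (log2 fold change 0.87, adjusted p = 0.0406, called in 8 of 12 alternatives). Sesn1, Trib2 and Asnsd1 were at log2 fold changes of -0.08, -0.07 and -0.04 (adjusted p = 0.691, 0.907 and 0.888).

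Other genes that ATF4 is known to drive did not share 1 direction. Of 12 enzymes of serine, glycine, one-carbon and proline synthesis and related steps 9 were listed and tested, and 5 rose and 1 fell, against 26.2% and 26.8% of all tested genes, with a median log2 fold change of 0.94. Psat1, the PLP-dependent aminotransferase of serine synthesis, rose from 42.6, 91.8 and 54.8 CPM with vehicle to 279, 223 and 220 CPM with AOA (log2 fold change 1.93, SE 0.26, adjusted p = 3.83e-04). Shmt2, the mitochondrial serine hydroxymethyltransferase and also PLP-dependent, rose from 62.9, 115 and 62.2 to 190, 251 and 235 CPM (log2 fold change 1.49, SE 0.25, adjusted p = 0.00104). In both genes every AOA library was above every vehicle library, vehicle replicate 2 included. Pycr1, the proline synthesis enzyme, fell at a low level, from a mean of 1.80 to 0.696 CPM (log2 fold change -1.37, adjusted p = 0.0187, called in 9 of 12 alternatives).

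Of 9 amino acid transporters 8 were listed and tested, and 1 rose and 1 fell, against 26.2% and 26.8% of all tested genes. Slc7a1, which carries arginine and lysine, rose (log2 fold change 1.29, SE 0.29, adjusted p = 0.00491). Slc1a5, which carries glutamine, fell by 0.39 on the log2 scale (adjusted p = 0.0412, called in 4 of 13 alternatives), and 1 transporter was called in all without vehicle replicate 1 or any AOA replicate. Without vehicle replicate 2, 2 transporters rose and 0 fell, against 29.6% and 27.9%, and the median log2 fold change turned from -0.30 to 0.30. The call of Slc1a5 was then lost, and Slc7a5, a leucine carrier named after its values had been seen, went from a log2 fold change of 0.88 (not called, adjusted p = 0.114) to 1.72 (adjusted p = 2.36e-04). Of 13 genes of tRNA charging and export 3 rose and 1 fell over all 6 libraries, against 26.2% and 26.8% of all tested genes, with a median log2 fold change of 0.34. Wars, charging tryptophan tRNA, rose (log2 fold change 0.79, adjusted p = 0.0100), as did Eprs, charging glutamate and proline tRNA (0.67, adjusted p = 0.0407, called in 8 of 13 alternatives). Sars, charging serine tRNA, fell by 0.40 on the log2 scale (adjusted p = 0.0332, called in 6 of 13 alternatives). The synthetase count depended on single libraries: without vehicle replicate 2, 10 of the 13 rose and 0 fell, against 29.6% and 27.9% of tested genes, and without vehicle replicate 1, AOA replicate 2 or AOA replicate 3, 1 was called in all, and without vehicle replicate 3, 2 were.

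The 30 tested enzymes, transporters and synthetases had vehicle replicate 2 as the highest vehicle library in 27 cases, against 42.2% of all tested genes, and over 1.5 times the other vehicle libraries in 16, against 11.3%. With all libraries 9 of the 30 rose and 3 fell (median log2 fold change 0.30), against 26.2% and 26.8% of all tested genes. Without vehicle replicate 2 the counts were 17 and 1 (median 0.62), against 29.6% and 27.9%. That library was singled out after its values had been seen. Leaving out the library that was highest for 27 of the 30 by itself raises fold changes, so the second counts are not independent of that choice. The response element is in the promoter of 5 of the 9 synthetase genes with a RefSeq promoter, 2 of 9 enzymes and 1 of 5 transporters, the last being Slc1a4, an alanine and serine carrier. Slc1a4, named after its values had been seen, was at 1.51, 12 and 2.50 CPM with vehicle and 2.48, 3.28 and 4.84 CPM with AOA, a ratio of 5.98 for vehicle replicate 2 over the others. Of the genes with a match in these lists, Slc1a4, Aars and Iars exceeded 1.5 times the other vehicle libraries. Yars, Gars, Tars, Pycr1 and Pck2 did not, and Pck2 had a ratio of 0.773. Among the 10 genes, Asns and Chac1 exceeded 1.5 times, whereas Trib3, which also has a match, had a ratio of 1.32. Sesn2 and Psat1 exceeded 1.5 times without a match in their promoters. Whether the element has a part in these ratios was not tested.

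**Figure D4:**
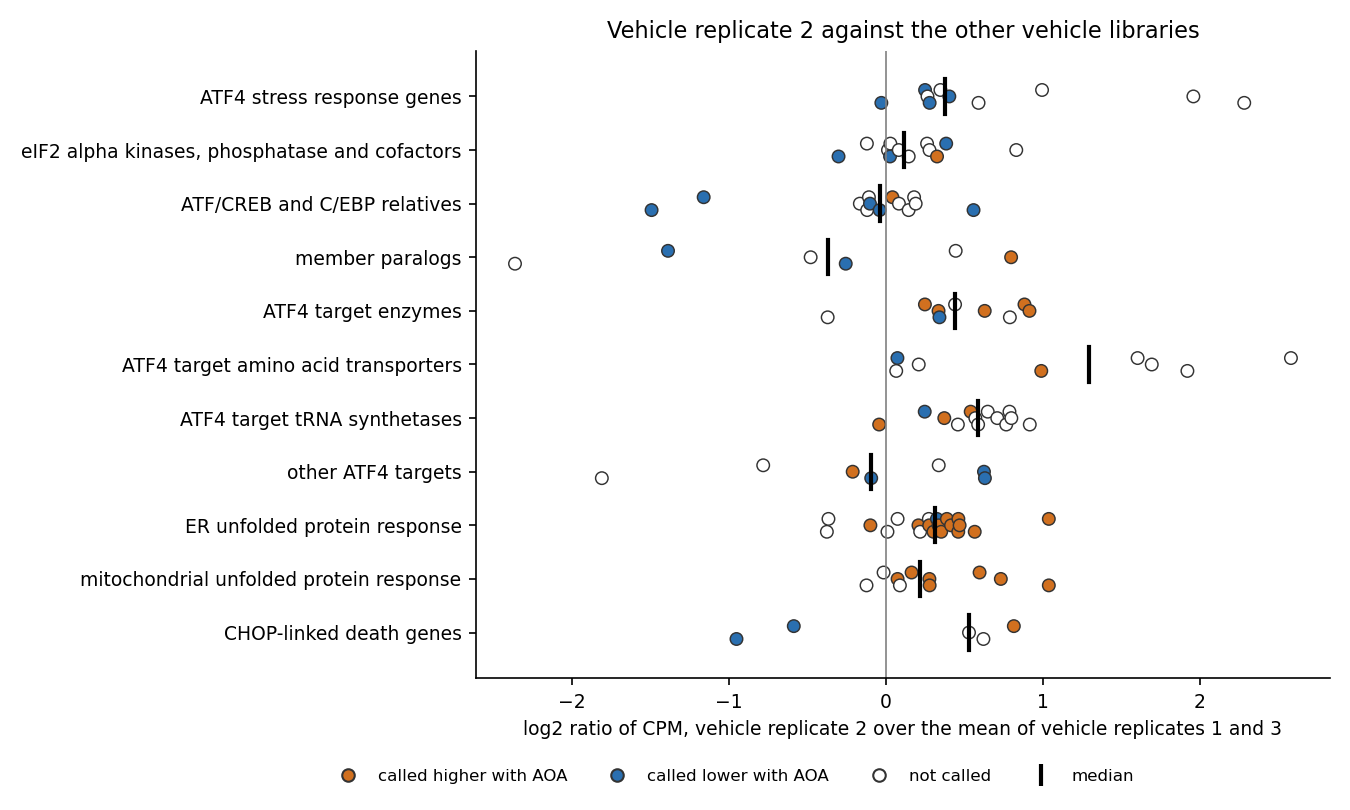
Log2 ratio of CPM in vehicle replicate 2 over the mean of vehicle replicates 1 and 3 (horizontal axis) for each tested gene of each list, coloured by the AOA comparison (orange higher, blue lower, white not called), with a black bar at the median. The transporters have the rightmost median, and Asns and Chac1 are the points of the top row farthest to the right.

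Of 11 further ATF4 targets 9 were listed and 7 tested, and 1 rose and 3 fell (median log2 fold change -0.63), against 26.2% and 26.8% of all tested genes. Stc2, a secreted glycoprotein, rose (log2 fold change 1.5, SE 0.20, adjusted p = 3.06e-04). Sqstm1, the autophagy receptor p62, fell (log2 fold change -1.86, SE 0.21, adjusted p = 1.40e-04), as did Jdp2, a bZIP repressor (-1.08, adjusted p = 0.00408). Of 5 genes tied to CHOP in cell death, 1 rose and 2 fell, against the same shares. Bcl2l11 (BIM) and Bbc3 (PUMA), activators of mitochondrial apoptosis, fell with Ddit3 (log2 fold changes -1.81 and -1.79, adjusted p = 7.51e-04 and 1.51e-04). Pmaip1 (NOXA) rose (log2 fold change 0.68, adjusted p = 0.0370, called in 7 of 13 alternatives).

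Ddit3 fell while many chaperone genes of the unfolded protein responses rose. Of 20 genes of the endoplasmic reticulum unfolded protein response 13 rose and 1 fell (median log2 fold change 0.71), against 26.2% and 26.8% and a median of -0.02 over all tested genes. Sdf2l1 and Pdia6, which help proteins fold in the endoplasmic reticulum, rose (log2 fold changes 1.92 and 1.10, adjusted p = 5.97e-04 and 4.71e-04). Ern1 (IRE1α), the sensor of that response, fell (log2 fold change -1.72, SE 0.22, adjusted p = 2.64e-04), as PERK did. Of 10 genes of the mitochondrial unfolded protein response 7 rose and 0 fell (median 0.54), against the same shares, and 4 were called in all without vehicle replicate 3. Hspd1 and Hspa9, mitochondrial chaperones, rose (log2 fold changes 1.67 and 1.38, adjusted p = 3.86e-04 and 0.00320).

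**Figure D5:**
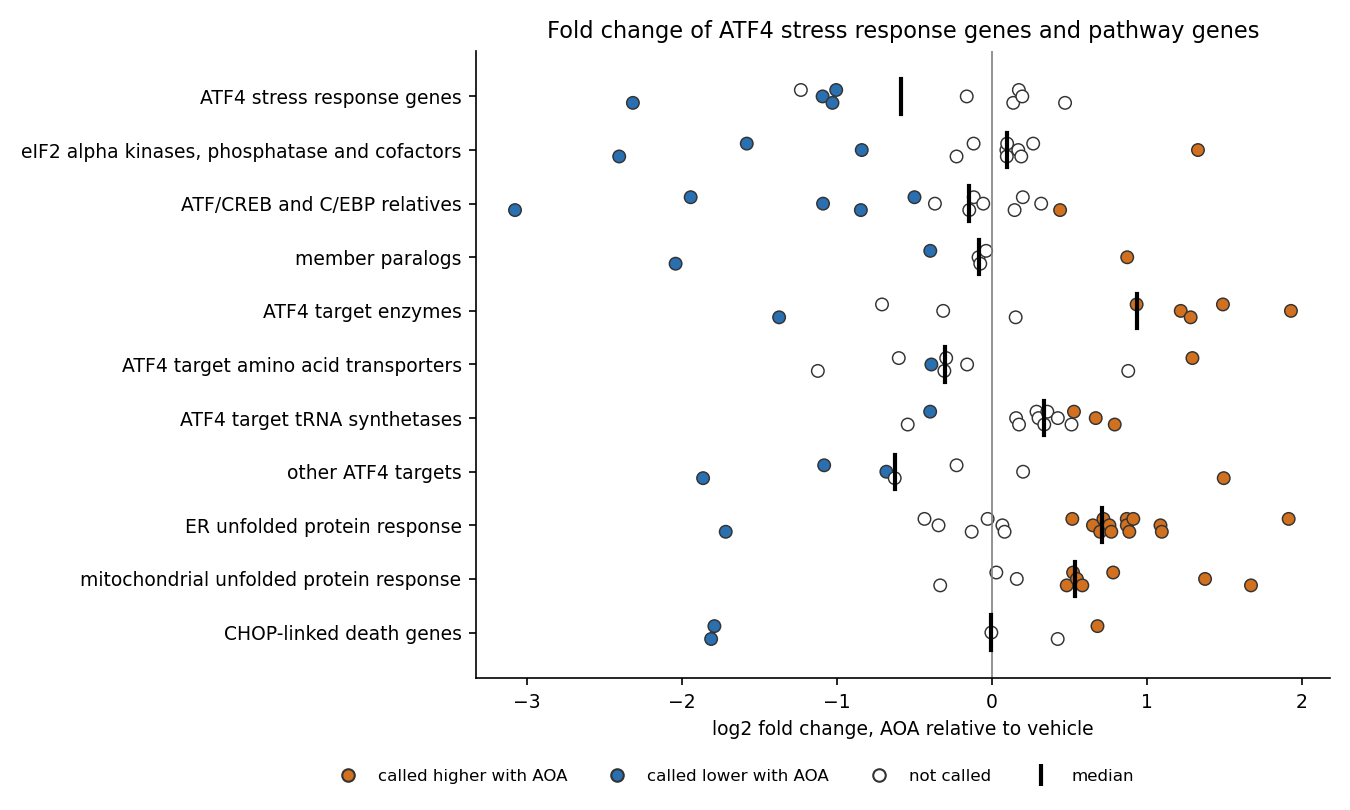
Log2 fold change of AOA relative to vehicle (horizontal axis) for each tested gene of each list, orange where higher, blue where lower and white where not called, with a black bar at the median. The top row has 4 blue points and no orange point, while the unfolded protein response rows hold 13 and 7 orange points.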

How the data were processed

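Messenger RNA of 3 vehicle and 3 AOA cultures was sequenced from stranded paired-end libraries. The authors deposited raw counts of uniquely mapped reads per gene, with the Entrez number, symbol and length in bases of each; the submitters' processing notes name bcl2fastq, STAR, featureCounts, DESeq2 and the build mm10, without versions. The annotation and the strand setting behind the counts, and whether rows were filtered, are not stated. Depth limits precision most for Chac1 and Cebpb.

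The counts were tested with the robust quasi-likelihood method of edgeR 4.0.16 in R 4.3.3, after filterByExpr (minimum count 10) and TMM normalisation and without a mouse term. Benjamini-Hochberg adjustment covered 11759 genes, and adjusted p under 0.05 was called. CPM were computed on TMM library sizes; a prior count of 2 was used for the log2 CPM behind likeness to Atf4. The 13 alternatives were DESeq2 1.42.0, voom of limma 3.58.1, size factors by median of ratios, scaling by total counts alone, omission of the low-count filter, a filter of 10 CPM in 3 libraries, a replicate block for the mouse, and omission of each library in turn. The labels pair the samples, since vehicle and AOA libraries carry the same mouse numbers; the correlation across genes of paired deviations was 0.0868, 0.189 and 0.194 in mice 1, 2 and 3, genes not being independent replicates. Replicates differed by more than sampling noise (chi-square per gene 10.0 to 71.1). The fits were checked on simulated counts with known changes. That simulation had no outlying library and no mouse effect, so it does not cover calls that turn on 1 library.

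The 10 genes and the lists were chosen with earlier results of these data known, and lists are described by counts and medians. Also named are the eIF2α kinases, Ppp1r15a, Ppp1r15b, the paralogs, from each other list up to 2 called genes per direction with the largest change and a mean of 1 CPM or more in the higher group, and the 3 genes most like Atf4 outside the lists. Positions and promoters are RefSeq GRCm38.p6, matched for 10 of 10 genes.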

Additional observations from a re-analysis of the deposited data

How the results depend on the processing

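The 4 decreases of Atf4, Ddit3, Trib3 and Ddit4 kept their direction and their call in all 13 alternatives. The number of the 10 genes called higher was 0, became 1 with the mouse as a replicate block (Sesn2), and ran from 0 to 3 when single libraries were left out, 3 without vehicle replicate 2. The block changed no call of the other 9 genes; of the 6292 genes it called, 6007 were also called without it.

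Among the 10 genes and the others named by rule, the signs that turned with a library left out belonged to differences that were not called over all 6 libraries. Cebpb ran from -0.36 to 0.11, Asns from -0.17 to 1.15 (-0.17 and -0.15 without vehicle replicates 1 and 3), Chac1 from -1.70 to 0.015, Eif2ak2 from -0.011 to 0.23, Sesn1 from -0.19 to 0.073, Asnsd1 from -0.22 to 0.16 and Trib2 from -0.49 to 0.36. Trib2 gained a call as lower without vehicle replicate 2 (-0.49, adjusted p = 0.0319), where it was at 14.7 CPM against 82.5 and 68.9 in the other vehicle libraries. It was also positive with limma (0.26) and with the block (0.17). Slc1a4, named after its values had been seen, turned from -0.60 to 0.82 without vehicle replicate 2. Called genes among the ATF/CREB and C/EBP relatives numbered 6, and 3 to 7 with a library left out (3 without vehicle replicate 1). The paralogs had 3 called, 1 with at least 10 CPM in 3 libraries and 1 to 4 with a library left out. The transporters had 2, 1 with total counts only, 1 with no low-count filter and 1 to 2 with a library left out, though not the same genes (Slc7a1 and Slc7a5 without vehicle replicate 2). The synthetases had 4, and 1 to 10 with a library left out. The mitochondrial list had 7, and 4 to 7 with a library left out (4 without vehicle replicate 3). The causes were not tested. With at least 10 CPM in 3 libraries Chac1 and Cebpb gave no value. The median of all genes moved by less than 0.1 under each scaling. Of the values for the other named genes, 401 kept their sign and their call or lack of one, though their size could move. A further 40 lost their call, 9 turned sign and 1 gained a call.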

Other observations

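In the AOA group many genes of amino acid transport and tRNA charging were lowest in the same library, a pattern noticed after the values had been seen. AOA replicate 1 was the lowest AOA library for 13 of the 13 genes of tRNA charging and export, 7 of the 8 transporters and 5 of the 9 enzymes, or 25 of the 30 in all (83.3%), against 39.8% of all tested genes. Eprs, for example, was at 184, 330 and 308 CPM in AOA replicates 1, 2 and 3, and Slc7a1 at 97.7, 159 and 147 CPM. Of the 10 ATF4 stress response genes, 4 were lowest in AOA replicate 1, a share like that of all tested genes. Psat1 was instead highest there, at 279 CPM, and so was Eif2s1, at 321 CPM against 216 and 196.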
